A study of Mus musculus with 23 samples.

Results

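The genes described here are 8 genes that Wnt signalling keeps switched on in the hepatocytes around the central vein of the mouse liver: Glul, Oat, Rhbg, Slc1a2, Axin2, Rnf43, Lgr5 and Tbx3. They were chosen by name, with earlier results of these data known. Each was read from the brightest of its probe sets that carry a single gene symbol in the platform annotation, by mean log2 intensity over all arrays. The 8 genes stand among 19147 genes named this way, and their 13 probe sets among 38385. The series measured liver RNA of mice with and without P2ry13 (GPR86), which encodes an ADP receptor, to find transcripts that differ when the gene is ablated. There were 4 groups: female wild type (female WT, n = 6), female P2ry13 knockout (female KO, n = 6), male wild type (male WT, n = 5, numbered 2 to 6) and male P2ry13 knockout (male KO, n = 6). Each array held the liver RNA of 1 mouse, as the design text describes it. The sources used here give no strain or age and do not say how the KO allele was made or whether the loss is limited to some cell types.

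Blood enters a liver lobule at the portal vein and leaves at the central vein, and hepatocytes along that path run different programmes. Endothelial cells of the central vein secrete Wnt ligands and R-spondins, which stabilise beta-catenin in the neighbouring hepatocytes, and beta-catenin with TCF/LEF factors then switches on a pericentral programme. Part of that programme captures ammonia and glutamate. Glul encodes glutamine synthetase, Rhbg an ammonia transporter of the Rhesus family, Slc1a2 the glutamate transporter GLT-1, and Oat ornithine aminotransferase, which turns ornithine towards glutamate. Another part acts within the pathway. Axin2 is a scaffold for beta-catenin breakdown, Rnf43 a ubiquitin ligase that removes Frizzled receptors and Lgr5 a receptor for R-spondins. The remaining gene, Tbx3, encodes a T-box transcription factor and belongs to neither part. Axin2 and Rnf43 restrain the signal that induces them, so they serve as feedback readouts of the pathway.

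The upstream sequences of 3 of the genes are shown, since they carry different outcomes in the comparison of the sexes below: Slc1a2 and Glul were higher in females and Axin2 did not pass the test. RefSeq promoter windows of build GRCm38.p6 were at hand for 5 of the 8 genes (6 windows). The 250 bases before each annotated start were searched on both strands for CTTTGA, the core of the TCF/LEF site, and for TTCNNNGAA, the element bound by STAT5, through which growth hormone acts in liver. Capitals mark a match to CTTTGA, written as TCAAAG where it lies on the reverse strand, and positions count back from the start. The windows lie on the plus strand at chr2:102706188-102706437 for Slc1a2, chr1:153899679-153899928 for Glul and chr11:108920099-108920348 for Axin2. Those of Slc1a2 and Axin2 precede a start inside the annotated span of the gene.
Slc1a2: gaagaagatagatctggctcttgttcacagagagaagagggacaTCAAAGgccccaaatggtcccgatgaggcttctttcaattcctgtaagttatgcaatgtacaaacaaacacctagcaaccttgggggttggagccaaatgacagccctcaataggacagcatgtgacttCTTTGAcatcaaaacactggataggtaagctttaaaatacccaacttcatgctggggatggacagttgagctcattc
Glul: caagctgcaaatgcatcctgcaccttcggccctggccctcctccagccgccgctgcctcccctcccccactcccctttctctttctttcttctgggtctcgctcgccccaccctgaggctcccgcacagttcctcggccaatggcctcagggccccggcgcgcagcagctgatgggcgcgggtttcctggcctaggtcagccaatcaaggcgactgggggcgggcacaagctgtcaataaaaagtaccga
Axin2: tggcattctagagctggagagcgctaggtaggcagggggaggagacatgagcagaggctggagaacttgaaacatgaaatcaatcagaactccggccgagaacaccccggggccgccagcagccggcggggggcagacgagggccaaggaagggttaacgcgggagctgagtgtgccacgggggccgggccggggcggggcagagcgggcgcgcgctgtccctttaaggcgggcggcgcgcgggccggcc
The Slc1a2 window holds CTTTGA at 2 places, at -206 on the reverse strand and at -77. The windows of Glul, Axin2, Oat and Rnf43 hold 0 matches to it, and TTCNNNGAA had 0 matches in all 6 windows. Over all 32851 promoter windows of the same length, 13.8% hold CTTTGA and 7.02% hold TTCNNNGAA, so a match is common. A match is no evidence of binding, and its absence says only that these letters are not in this window.

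Values below are log2 intensities, and a difference of 1 is a doubling in intensity. The arrays were alike in scale, with medians of 19.5 to 21.1 on the linear scale and pairwise correlations of 0.983 to 0.995. P2ry13, the targeted gene, was lower in KO than in WT in females (-1.12, limma, adjusted p = 6.07e-09) and in males (-0.80, limma, adjusted p = 2.12e-05), and Xist and Eif2s3y separated the sexes as labelled. The sources used here do not place the P2ry13 probe set within or outside the deleted stretch. Hepatocyte markers were bright on all arrays: the summed intensity of the 6 measured hepatocyte markers, Alb among them, lay between 15.91 and 16.13 on the log2 scale. In bulk liver, fewer cells of a type and less RNA per cell cannot be told apart, which holds for the thin pericentral layer of hepatocytes as for any other cells. The number of arrays limits the precision of every value.

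The clearest pattern among the 8 genes was a difference between the sexes. Slc1a2, Rhbg, Lgr5, Oat and Glul were higher in female than in male liver, by 0.22 to 0.54 on the log2 scale as the average of the WT and KO differences, which is 1.16-fold to 1.46-fold. All 4 genes of ammonia and glutamate handling were among them, and the R-spondin receptor Lgr5 was the fifth. Axin2, Rnf43 and Tbx3 did not pass the test, with differences of 0.04, 0.05 and 0.11. An adjusted p under 0.05 over all 38385 probe sets counts as passing throughout. Of the 8 genes, 5 passed with higher values in females and 0 with higher values in males, where 5.96% of all probe sets passed in the female direction and 10.5% in either direction. Over the brightest probe set of each named gene, 8.25% passed in the female direction. Among probe sets brighter than the median, tested alone, 3855 passed in either direction, against 4036 of all 38385. The share was thus higher among bright probe sets, and all 8 genes are among those. The median difference of the 8 genes was 0.26, against -0.01 over all probe sets. When the arrays were scaled to equal medians, the share of all passing probe sets that were higher in females moved from 56.7% to 67.6%, and under quantile normalization it moved to 50.6%. Under both, 5 of the 8 genes passed.

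**Figure D1:**
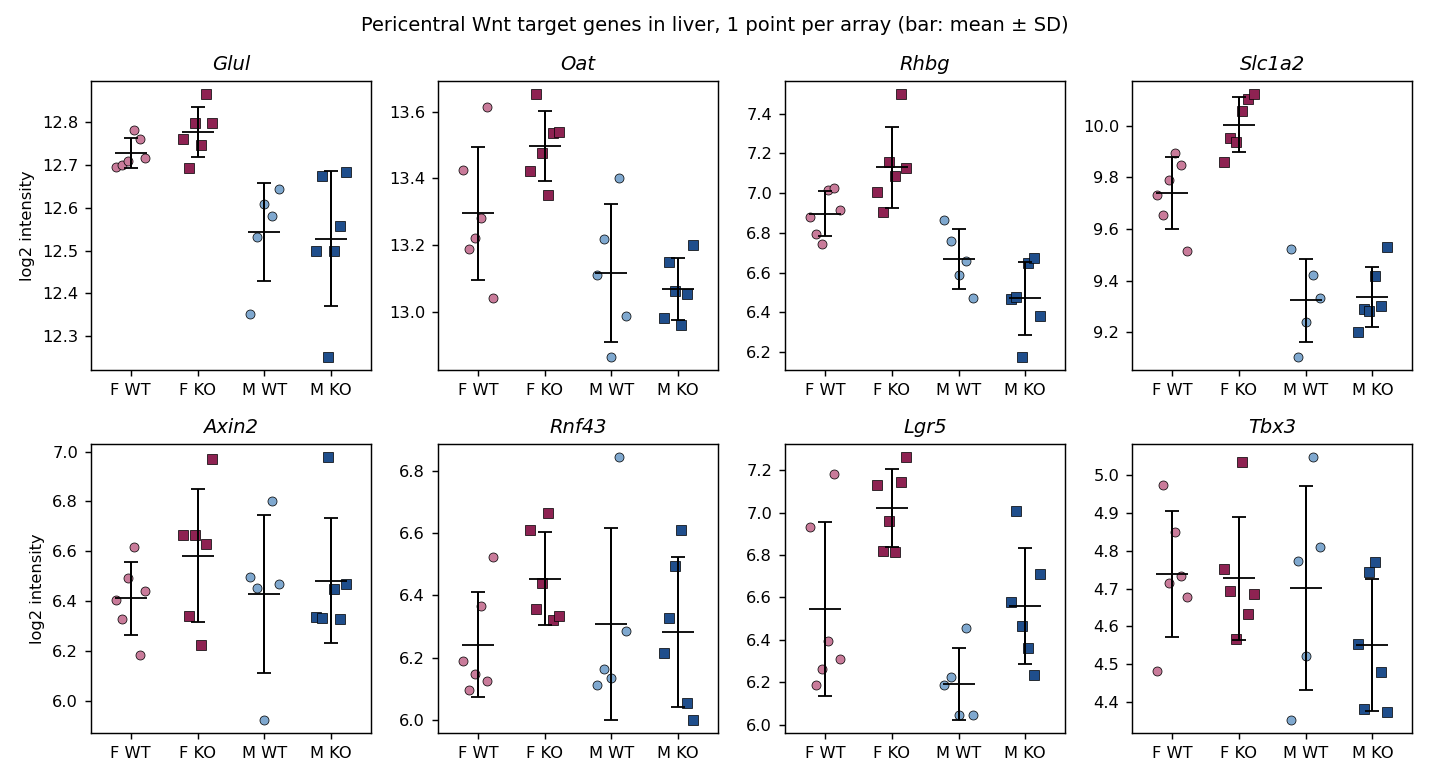
Log2 intensity of the 8 genes on each of the 23 arrays (vertical axis, each panel with its own range), by group: female WT, female KO, male WT and male KO. Points are arrays and bars are the mean and SD of a group; in the panels of Glul, Rhbg and Slc1a2 most female points lie above the male points, while in those of Axin2, Rnf43 and Tbx3 the groups overlap.

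Slc1a2, the glutamate transporter, had the widest separation relative to its error. Female WT arrays ran from 9.51 to 9.89 with a median of 9.76, and female KO replicates 1 to 6 read 9.86, 9.95, 9.94, 10.05, 10.10 and 10.12. Male WT replicates 2 to 6 read 9.52, 9.10, 9.24, 9.42 and 9.33, and male KO arrays ran from 9.20 to 9.53 with a median of 9.29. Of the 12 female arrays, 11 lay above every male array; female WT replicate 6 was the exception. Females were higher by 0.54 (SE 0.06, 95% interval 0.42 to 0.66, 1.46-fold, limma, adjusted p = 7.72e-08).

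Rhbg, which moves ammonia across the hepatocyte membrane, read from 6.75 to 7.02 with a median of 6.90 in female WT and from 6.90 to 7.50 with a median of 7.10 in female KO. Male WT replicates 2 to 6 read 6.86, 6.76, 6.59, 6.66 and 6.47, and male KO arrays ran from 6.18 to 6.68 with a median of 6.47. The highest female values were in KO arrays and the lowest male values were in KO arrays. Of the 12 females, 10 lay above every male array, and the average difference was 0.44 (SE 0.07, 95% interval 0.30 to 0.58, 1.36-fold, limma, adjusted p = 3.37e-05).

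Glul is the enzyme that defines the innermost ring of hepatocytes. Female WT arrays ran from 12.70 to 12.78 with a median of 12.71, and female KO arrays from 12.69 to 12.87 with a median of 12.78. Male WT replicates 2 to 6 read 12.35, 12.53, 12.61, 12.58 and 12.64, and male KO arrays ran from 12.25 to 12.68 with a median of 12.53. All 12 female arrays lay above all 11 male arrays, which held for 0.787% of all probe sets, but the lowest female value, 12.69, nearly touched the highest male value, 12.68. The SD over arrays was 0.05 in females (n = 12) and 0.13 in males (n = 11). The difference was 0.22 (SE 0.05, 95% interval 0.12 to 0.32, 1.16-fold, limma, adjusted p = 0.0036).

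Oat overlapped more between the sexes. Female WT arrays ran from 13.04 to 13.61 with a median of 13.25, and female KO arrays from 13.35 to 13.65 with a median of 13.51. Male WT replicates 2 to 6 read 13.11, 13.22, 12.87, 13.40 and 12.99, and male KO arrays ran from 12.96 to 13.20 with a median of 13.06. Of the 12 females, 7 lay above every male. The average difference was 0.30 (SE 0.06, 95% interval 0.17 to 0.44, 1.23-fold, limma, adjusted p = 0.00194).

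Glul and Slc1a2 were read by more than 1 probe set, and these gave the same direction. The dimmer Glul probe set, with a mean of 11.25, was 0.45 higher in females (SE 0.08, 1.36-fold, limma, adjusted p = 0.000262), against 0.22 at the brighter probe set. At the dimmer probe set 3 of 12 female arrays lay above every male array, while all 12 did so at the brighter one. Whether the sex difference depends on the probe set was not tested. The 5 probe sets of Slc1a2 gave 0.54, 0.49, 0.58, 0.47 and 0.32 from the brightest to the dimmest, and all 5 passed. At the second Slc1a2 probe set every female array (9.56 to 9.91) lay above every male array (9.01 to 9.44). The sources used here do not say which transcripts the probe sets of a gene read.

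**Figure D2:**
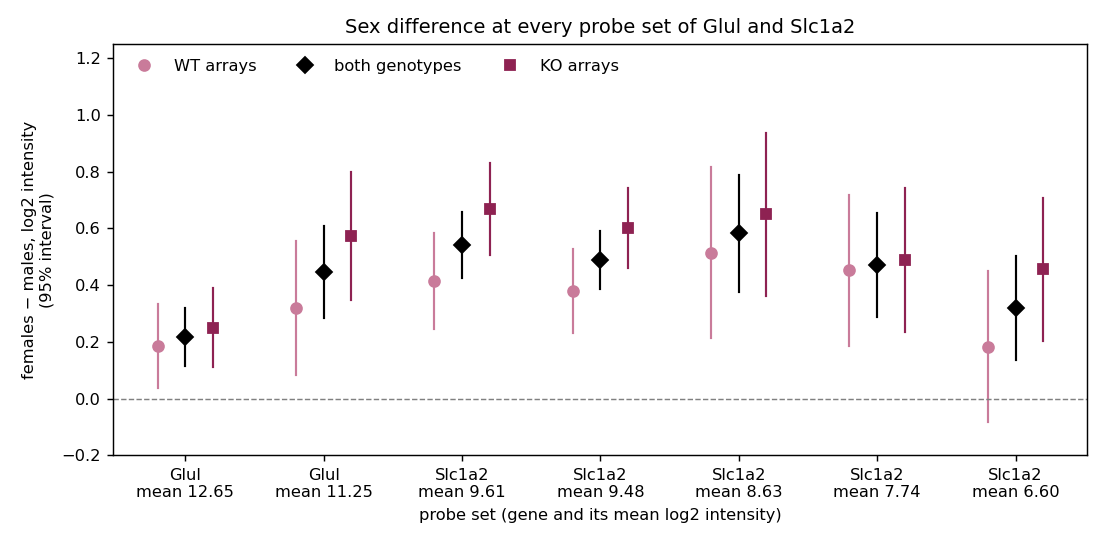
Females minus males in log2 intensity (vertical axis, with 95% intervals) at the 2 probe sets of Glul and the 5 of Slc1a2 (horizontal axis, with the mean log2 intensity of each), for WT arrays, KO arrays and the average of both genotypes. All 7 averages lie above 0, from 0.22 at the brighter Glul probe set to 0.58 at the third Slc1a2 probe set; the interval of the dimmest Slc1a2 probe set in WT arrays spans 0.

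Among the genes that act within the pathway, Lgr5 alone passed between the sexes. Female WT arrays ran from 6.19 to 7.18 with a median of 6.35, because replicates 1 and 5 read 6.93 and 7.18 and the other 4 lay between 6.19 and 6.39. Female KO arrays ran from 6.81 to 7.26 with a median of 7.04. Male WT replicates 2 to 6 read 6.19, 6.22, 6.05, 6.46 and 6.04, and male KO arrays ran from 6.24 to 7.01 with a median of 6.52. The sexes overlapped: 4 of 12 females lay above every male. Females were higher by 0.41 (SE 0.10, 95% interval 0.19 to 0.62, 1.33-fold, limma, adjusted p = 0.0105).

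Axin2, the feedback scaffold, ran from 6.19 to 6.97 in females and from 5.92 to 6.98 in males. The difference was 0.04 (95% interval -0.15 to 0.23, limma, adjusted p = 0.848). Rnf43, the ligase that clears Frizzled, ran from 6.09 to 6.67 in females and from 6.00 to 6.85 in males, a difference of 0.05 (95% interval -0.12 to 0.23, limma, adjusted p = 0.776). For Axin2 and Rnf43 the male range enclosed the female range, and both intervals hold the 0.22 seen for Glul but not the 0.30 seen for Oat. They thus leave room for a difference as large as that of a gene that passed. Tbx3 ran from 4.48 to 5.03 in females and from 4.35 to 5.05 in males, a difference of 0.11 (95% interval -0.05 to 0.26, limma, adjusted p = 0.437). Signal without transcript differs between probe sets: the 4 probe sets of Y-linked genes read 2.53 to 3.69 in female liver, and that of Xist read 4.14 to 5.22 in male liver. All Tbx3 values lie above the former range and within the latter, so these data do not settle how much of the Tbx3 signal is transcript.

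Split by genotype, the sex difference passed for 1 of the 8 genes in WT mice, where 2.54% of all probe sets passed in the female direction and 4.25% in either. It passed for 4 of the 8 in KO mice, where 3.21% and 4.85% did. Slc1a2 passed in both, at 0.42 in WT (limma, adjusted p = 0.00209) and 0.67 in KO (limma, adjusted p = 1.12e-06). Rhbg was 0.23 higher in WT females (limma, adjusted p = 0.226) and 0.66 higher in KO females (limma, adjusted p = 2.23e-05). Oat gave 0.18 (limma, adjusted p = 0.35) in WT and 0.43 (limma, adjusted p = 0.00287) in KO, and Glul gave 0.18 (limma, adjusted p = 0.165) and 0.25 (limma, adjusted p = 0.0288). Lgr5 gave 0.35 in WT and 0.46 in KO and passed in neither (limma, adjusted p = 0.224 and 0.0666). Axin2 and Rnf43 had values of -0.02 and -0.07 in WT and 0.10 and 0.17 in KO. These values do not show that the sex difference itself depends on genotype: that difference was tested directly, as the difference of the KO effects, and passed for 0 of the 8 genes, as given below.

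The order of the group means was female KO, female WT, male WT, male KO for Glul, Oat and Rhbg. For Slc1a2 the male groups changed places, at 9.34 ± 0.12 in male KO and 9.32 ± 0.16 in male WT (SD, n = 6 and 5). For Lgr5 both KO groups stood above their WT groups: female KO 7.02 ± 0.19, male KO 6.56 ± 0.27, female WT 6.54 ± 0.41 and male WT 6.19 ± 0.17 (SD, n = 6, 6, 6 and 5). Axin2 and Rnf43 were also highest in female KO, at 6.58 ± 0.27 and 6.45 ± 0.15 (SD, n = 6), and lowest in female WT, at 6.41 ± 0.15 and 6.24 ± 0.17 (SD, n = 6). For Tbx3 the order was female WT, female KO, male WT and male KO. Between neighbours in these orders, only the step from female WT to male KO in Slc1a2 passed (0.40, limma, adjusted p = 0.00186). The other neighbours did not pass, and the lowest of their adjusted p values was 0.0666 (limma), between female KO and male KO in Lgr5. Failing this test does not show that the groups overlap. In Glul the lowest female WT array (12.70) lay above the highest male WT array (12.64). In Lgr5 female KO (lowest 6.81) and male KO (highest 7.01) overlapped.

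The knockout comparisons put the study's own question, which transcripts differ on loss of P2ry13, to these genes. In females 0 of the 8 genes passed, where 0.0547% of all probe sets did, and the adjusted p values of the 8 ran from 0.615 to 0.996 (limma). The values leaned upwards in KO for 7 of the 8 genes, where 47.6% of all probe sets did. The median was 0.21 against -0.01 over all probe sets. At an unadjusted p under 0.05, 4 of the 8 stood out, against 5.87% of all probe sets. They were Lgr5 at 0.48 (95% interval 0.18 to 0.77), Slc1a2 at 0.27 (0.10 to 0.43), Rhbg at 0.23 (0.04 to 0.43) and Oat at 0.20 (0.02 to 0.38). For Slc1a2, 5 of 6 female KO arrays lay above every female WT array, and for Rhbg and Axin2 4 of 6 did. The other 4 Slc1a2 probe sets, from brighter to dimmer, gave 0.19, 0.17, 0.06 and 0.22, with 5, 0, 1 and 2 of 6 KO arrays above every WT array. Glul gave 0.05 (95% interval -0.09 to 0.19), Axin2 0.17 (-0.10 to 0.44), Rnf43 0.21 (-0.03 to 0.45) and Tbx3 -0.01 (-0.23 to 0.20). The dimmer Glul probe set gave a larger value, 0.20 (95% interval -0.03 to 0.43, limma, adjusted p = 0.873), with 5 of 6 KO arrays above every WT array. The size that the data allow for Glul therefore depends on the probe set, with upper bounds of 0.19 and 0.43, and for Lgr5 the upper bound was 0.77.

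In males 0 of the 8 genes passed as well, where 0.0313% of all probe sets did (limma, adjusted p values from 0.74 to 0.993). Of the 8 values, 3 were above 0, where 48.2% of all probe sets were. The median was -0.02, against -0.004 over all probe sets. Lgr5 gave 0.37 (95% interval 0.06 to 0.68), the only one of the 8 at an unadjusted p under 0.05, against 6.14% of all probe sets. Of the 6 male KO arrays, 4 lay above every male WT array for Lgr5. Rhbg leaned the other way, at -0.20 (95% interval -0.40 to 0.00), with 3 of 6 male KO arrays below every male WT array. Glul gave -0.02 (95% interval -0.16 to 0.13), Oat -0.05 (-0.24 to 0.14) and Slc1a2 0.01 (-0.16 to 0.18). A plain analysis of variance within each sex, the kind of test that the design text names, also called 0 of the 8 in either sex.

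**Figure D3:**
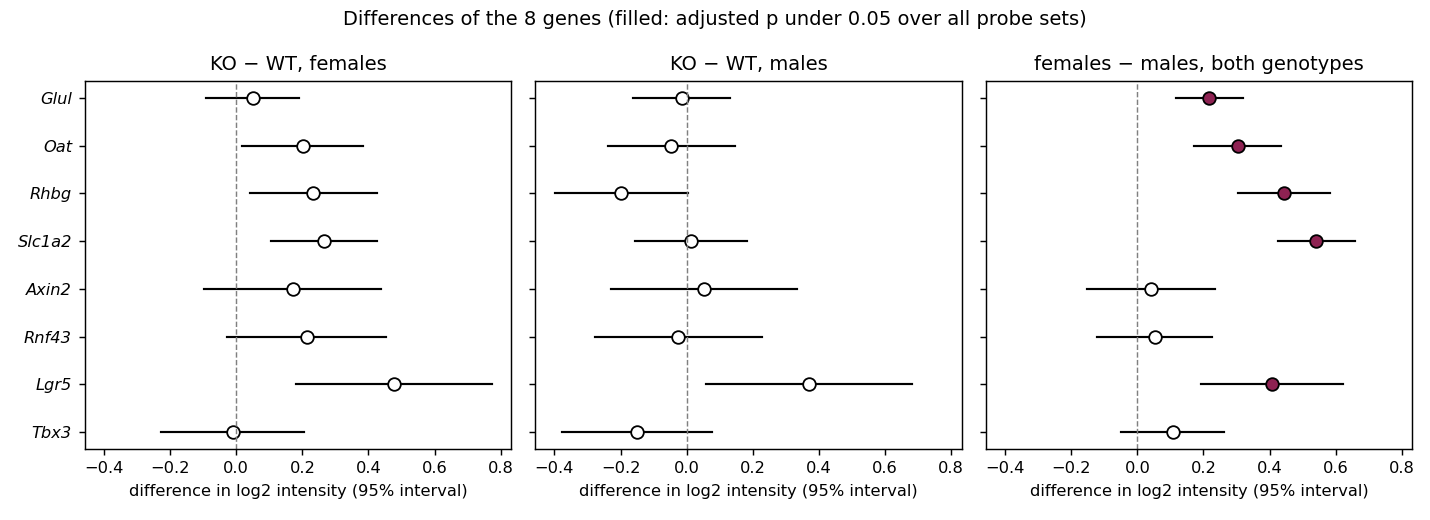
Differences in log2 intensity with 95% intervals (horizontal axis) for the 8 genes (rows): KO minus WT in females, KO minus WT in males, and females minus males averaged over genotypes. Filled points passed at an adjusted p under 0.05, which was so for Glul, Oat, Rhbg, Slc1a2 and Lgr5 between the sexes and for none of the 8 genes in the KO comparisons.

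Averaged over the sexes, Lgr5 was the gene of the 8 nearest to the threshold. It was 0.42 higher in KO (SE 0.10, 95% interval 0.21 to 0.64, 1.34-fold) and did not pass (limma, adjusted p = 0.25), and 6 of 6 KO arrays in each sex lay above the WT median of that sex. It passed when female WT replicate 5, the array with the highest WT value, was left out (0.49, limma, adjusted p = 0.02), and under none of the other alternatives tried. In this average 0 of the 8 genes passed, where 0.0808% of all probe sets did, and Lgr5 and Slc1a2 (0.14, limma, adjusted p = 0.67) had an unadjusted p under 0.05, against 6.91% of all probe sets.

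The KO effect in females minus that in males was above 0 for 8 of the 8 genes, where 49.6% of all probe sets were. The median was 0.19, against -0.001 over all probe sets. This difference passed for 0 of the 8 genes, where 0.0104% of all probe sets passed. Rhbg gave 0.43 (SE 0.14, 95% interval 0.15 to 0.71, limma, adjusted p = 0.915) and Slc1a2 0.25 (SE 0.11, 95% interval 0.02 to 0.49, limma, adjusted p = 0.962). These were the 2 genes with an unadjusted p under 0.05, against 5.14% of all probe sets. Since the female and male groups share no arrays, the values for the sexes come from separate mice.

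Rhbg lies on chromosome 3, as does P2ry13. In the gene order of assembly GRCm38.p6, Rhbg is measured gene 351 and P2ry13 gene 212 of 922 on that chromosome. The array names no assembly, so only the order was used. Of the 922, 20 passed in a KO comparison, within a sex or averaged over the sexes. Over all probe sets, 0.0547% passed in females, 0.0313% in males and 0.0808% in the average. Passing genes were thus more frequent on this chromosome. The nearest of those to Rhbg were Trim2, on the P2ry13 side with 43 measured genes between, and Snx27, on the far side with 137 between. None of the 5 measured genes on each side of Rhbg (Ttc24, Iqgap3, Mef2d, AW047730 and Gm3764, then Tsacc, Cct3, Glmp, Tmem79 and Smg5) passed in a KO comparison. With so few probe sets passing, this says little about the stretch around Rhbg. The sources used here do not give the strain origin of this stretch in KO and WT mice, and its part in the Rhbg values was not tested.

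The 8 genes did not move as a block from mouse to mouse. After the group mean was taken from each value, the 28 pairs of genes had a median Pearson correlation of 0.12 over the 23 arrays, 16 of the 28 were positive, and the lowest was -0.29. A single pair passed after adjustment over the 28: Oat and Lgr5, with r = 0.71 (two-sided permutation within groups, 100000 resamples, p = 0.00057, adjusted p = 0.016) and Spearman rho = 0.66 (permutation, adjusted p = 0.0451). Without the 2 arrays farthest from the median of Oat, r was 0.57. Leaving out female WT replicate 5, which had the highest Oat and the highest Lgr5 value of its group, lowered it to 0.59 and the pair no longer passed (permutation, adjusted p = 0.0797). Without female WT replicate 1 it was 0.70 and did not pass either (permutation, adjusted p = 0.0546). Within single groups, r for Oat and Lgr5 was 0.91 in female WT, 0.96 in male WT and 0.64 in male KO. In female KO it was 0.08. Each group holds few arrays, and whether r differs between groups was not tested. Tbx3 and Rnf43 had r = 0.63 and did not pass (permutation, adjusted p = 0.0686). Glul and Axin2, the pericentral enzyme and the feedback scaffold, had r = -0.29 and did not pass (permutation, adjusted p = 0.756). Their Spearman rho was -0.02, and without the 2 arrays farthest from the median of Glul, r was 0.08. With group means left in, 11 of the 28 pairs passed.

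**Figure D4:**
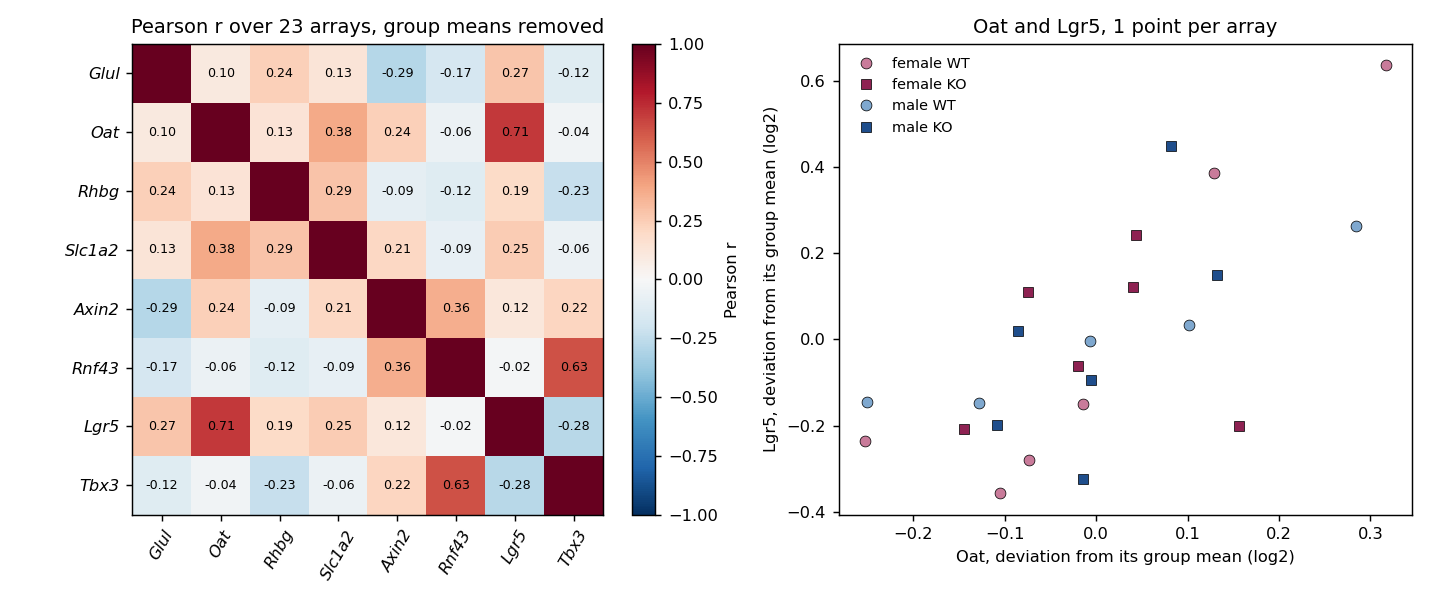
Left, Pearson r for each pair of the 8 genes over 23 arrays after group means were removed, where Oat with Lgr5 (0.71) and Tbx3 with Rnf43 (0.63) are the highest. Right, deviation of Lgr5 (vertical axis, log2) against deviation of Oat (horizontal axis, log2) from the group mean, 1 point per array and marked by group; the point farthest up and right is female WT replicate 5.

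The genes whose array-to-array pattern was most like that of Glul among 16702 named genes, by Pearson r over the 23 arrays with group means removed, were Vps13c (0.78), Rccd1 (0.77), Celf1 (0.76), Sdc2 (0.76) and Gspt1 (0.75). For Axin2 they were Hmgxb3 (0.78), Cbs (0.75), Nfil3 (0.75), Plekhm1 (0.74) and Pdia3 (0.74). The Pdia3 probe set was dim, with a mean of 3.59, within the range that the Y-linked probe sets read in females. The lists share no gene. These are the top of a ranking over many genes and are given as a description.

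Across the rest of the Wnt pathway, some genes were higher and some lower in females. Of 38 measured ligands, receptors, transducers and other targets, 3 passed with higher values in females and 2 with lower values, where 5.96% of all probe sets passed upwards and 10.5% in either direction, so the share is near the background. The median was 0.09 against -0.01 over all probe sets. Ccnd1, cyclin D1, was far the largest at 2.18 (SE 0.12, 4.52-fold, limma, adjusted p = 9.59e-14), with means of 9.53 in females and 7.36 in males. Porcn, which lipid-modifies Wnt ligands, was 0.35 higher (SE 0.09, limma, adjusted p = 0.00861) and the receptor Fzd1 0.25 higher (SE 0.05, limma, adjusted p = 0.000978). Axin1, the constitutive relative of Axin2, was lower by 0.15 in females (a difference of -0.15, SE 0.04, limma, adjusted p = 0.0269), and Sfrp1, a secreted Wnt antagonist, differed by -0.23 (SE 0.07, limma, adjusted p = 0.028). Axin1 no longer passed when the arrays were scaled to equal medians (-0.13, limma, adjusted p = 0.0745), with the replicate number as a block (-0.15, limma, adjusted p = 0.0546) or without male WT replicate 2 (-0.14, limma, adjusted p = 0.0578). Sfrp1 lost its call when a single array was left out: replicate 4 of female KO (limma, adjusted p = 0.0504), replicate 6 of male KO (limma, adjusted p = 0.0509) or replicate 2 of male WT (limma, adjusted p = 0.0651). Neither the central vein ligands Wnt2 (-0.06, limma, adjusted p = 0.705) and Wnt9b (0.11, limma, adjusted p = 0.284) nor Rspo3 (0.12, limma, adjusted p = 0.12) passed. The same was true of Lgr4 (-0.17, limma, adjusted p = 0.111), the R-spondin receptor related to Lgr5, of Znrf3 (0.09, limma, adjusted p = 0.387), the ligase related to Rnf43, and of Tcf7l2 (0.04, limma, adjusted p = 0.823), a TCF factor. Ctnnb1, which encodes beta-catenin, is not analysed here.

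Other pericentral genes split in direction between the sexes. Of 26 measured, 11 were higher in females, 6 were lower and 9 did not pass, with a median of 0.03. Of all probe sets, 5.96% passed with higher values in females and 10.5% in either direction. Over the brightest probe set of each named gene, 8.25% passed in the female direction. Nt5e, the ectonucleotidase CD73, was 2.81 higher (SE 0.09, 7.02-fold, limma, adjusted p = 9.65e-20), and Nr1i3, the nuclear receptor CAR, 0.57 higher (SE 0.07, limma, adjusted p = 3.21e-07). Lect2 was 0.54 higher (SE 0.06, limma, adjusted p = 3.85e-07). In the other direction, Aldh1a1, a retinal dehydrogenase, differed by -0.22 (SE 0.05, limma, adjusted p = 0.00526) and Cyp1a2, the caffeine-metabolising enzyme, by -0.17 (SE 0.05, limma, adjusted p = 0.032). Cyp1a2 did not pass under quantile normalization (-0.15, limma, adjusted p = 0.0592) or equal array medians (-0.15, limma, adjusted p = 0.0838), nor without several single arrays. Cyp2e1, the classic pericentral cytochrome, gave -0.01 and did not pass (limma, adjusted p = 0.867).

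Genes of the opposite, periportal end also differed. Of 26 measured, 10 were higher in females and 4 lower, with a median of 0.10, against 5.96% of all probe sets upwards and 10.5% in either direction. Cyp17a1, a steroid hydroxylase, was 3.95 higher (SE 0.12, limma, adjusted p = 1.06e-19) and Ctsc, cathepsin C, 1.13 higher (SE 0.07, limma, adjusted p = 3.06e-12). Serpina12 differed by -1.58 (SE 0.17, limma, adjusted p = 7.72e-08) and Cyp2f2, a periportal cytochrome, by -0.39 (SE 0.05, limma, adjusted p = 6.56e-06). The medians of the 8 Wnt targets, the other pericentral genes and the periportal genes were thus 0.26, 0.03 and 0.10.

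In the KO comparisons 0 genes passed in each of these 3 lists (limma), where 0.0547% of all probe sets passed in females and 0.0313% in males. At an unadjusted p under 0.05, which 5.87% of all probe sets reached in females and 6.14% in males, there were 2 of the 38 Wnt pathway genes in females and 0 in males, so the count in females is near the background. The 2 were Nkd1, a feedback inhibitor (0.26, limma, adjusted p = 0.836), and Fzd8 (0.33, limma, adjusted p = 0.836). Nkd1 was dim, with female means within the range that Xist read in males. Among other pericentral genes 3 of 26 had an unadjusted p under 0.05 in females and 3 in males. In females the smallest p values were those of Slc16a10 (0.35, limma, adjusted p = 0.735) and Lhpp (0.34, limma, adjusted p = 0.789). Nt5e gave 0.25 in females (limma, adjusted p = 0.848) and -0.51 in males (limma, adjusted p = 0.291). Of the 26, 20 were above 0 in females and 11 in males, where 47.6% and 48.2% of all probe sets were. Among periportal genes 4 of 26 did so in females and 5 in males, and none passed.

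**Figure D5:**
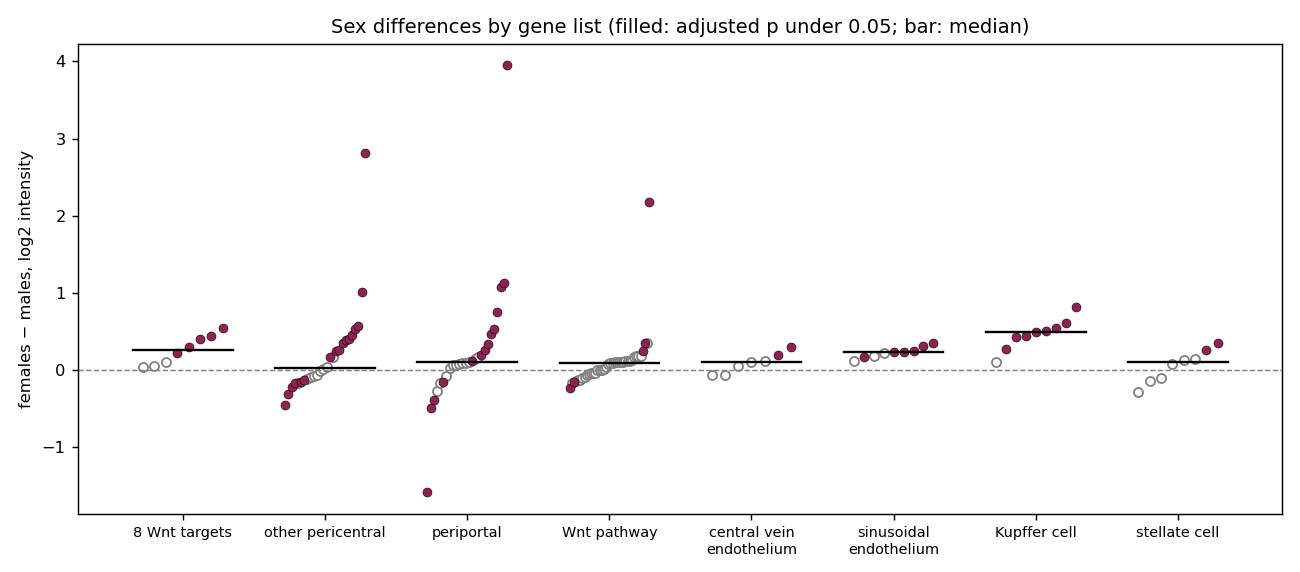
Females minus males in log2 intensity (vertical axis) for each measured gene of 8 lists (horizontal axis): the 8 Wnt targets, other pericentral, periportal and Wnt pathway genes, and markers of central vein endothelium, sinusoidal endothelium, Kupffer cells and stellate cells. Filled points passed at an adjusted p under 0.05 and bars are medians: 0.26 for the 8 Wnt targets, 0.23 for sinusoidal endothelium and 0.50 for Kupffer cells.

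Markers of cells other than hepatocytes moved with sex too. Beside the counts that follow, 5.96% of all probe sets passed with higher values in females and 10.5% in either direction. Of 9 Kupffer cell markers, 8 were higher in females, with a median of 0.50, and their summed intensity ran from 12.58 to 13.01 on the log2 scale in females and from 12.08 to 12.55 in males, without overlap. Adgre1, a surface marker of macrophages, was 0.61 higher (SE 0.06, limma, adjusted p = 3.6e-08). Of 9 sinusoidal endothelial markers, 6 were higher in females, with a median of 0.23, and the sums ran from 11.90 to 12.11 against 11.64 to 11.87. Cdh5, VE-cadherin, was 0.36 higher (SE 0.06, limma, adjusted p = 6.13e-05). Of these 6, Clec4g and Oit3 did not pass under quantile normalization or without several single arrays. Of 7 markers of central vein endothelium, the cells that supply the Wnt ligands, Thbd (0.30, limma, adjusted p = 0.018) and Cdh13 (0.19, limma, adjusted p = 0.0339) passed, Cdh13 not under quantile normalization or without several single arrays. The sums overlapped, from 8.51 to 8.70 in females and from 8.31 to 8.56 in males. Stellate markers passed upwards for 2 of 8, Colec11 and Rgs5, and Rgs5 did not pass under quantile normalization (limma, adjusted p = 0.0521). Their sums overlapped as well (10.48 to 10.92 in females, 10.32 to 10.67 in males). Hepatocyte markers passed for 1 of 6, Ahsg (0.19, limma, adjusted p = 0.00147). Bile duct markers passed for 1 of 5, Sox9 (-0.34, limma, adjusted p = 0.00279). Of 7 lymphocyte markers, 3 were higher and 1 lower in females. The part of these cell types in the sex difference of the 8 genes was not tested. In the KO comparisons 0 markers passed in each of these lists (limma). Of all probe sets, 0.0547% passed in females, 0.0313% in males and 0.0808% in the average. At an unadjusted p under 0.05, the most in a list was 2 of the 9 Kupffer cell markers, in females and in the average. Of all probe sets, 5.87% and 6.91% reached that level there.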

How the data were processed

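The deposited value table holds a linear intensity per probe set for each of the 23 arrays, which the authors obtained by RMA according to the submitters' processing notes; the sources used here give no settings. RNA was amplified to biotin-labelled cRNA, per the labels' protocols. Values were taken to log2 without further scaling. Gene names came from the platform annotation: 24478 of 38385 carry 1 symbol, 65 several and 13842 none here. With limma 3.58.1 in R 4.3.3, a model with a mean for each group was fitted over all 23 arrays (19 residual and 7.61 prior degrees of freedom), with Benjamini-Hochberg adjustment over 38385 probe sets. Correlations used 100000 permutations within groups, with NumPy 2.4.6 in Python 3.11.15. Scripts were tested on simulated data.

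The 8 genes and all lists were chosen with earlier results of these data known. Genes named are the 8, label checks, a fixed set of Wnt and zonation genes, those with the smallest p of a list (up to 6 that passed, or 2 where none did), pattern neighbours, and the measured neighbours of Rhbg; not every one is printed. Trim2, Snx27 and Nt5e in the female KO comparison were named after their values were seen. The alternatives left out dim probe sets or used other scalings, array weights, an intensity trend, the replicate number as a block, fits to the compared groups only, a plain analysis of variance, the mean over the probe sets of a gene and leaving out each array.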

Additional observations from a re-analysis of the deposited data

Results flagged for a closer look

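Of 32 sets of a gene in a group, 2 had an array far from the others, and chance alone gives about 1 in 20. Axin2 in male KO replicate 3 read 6.98, with the nearest of its group at 6.47. Rnf43 in male WT replicate 5 read 6.85, with the nearest at 6.28. On that array 7 of the 8 genes lay above the mean of the group, with a median deviation of 0.27.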

How the results depend on the processing

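Each of the 5 comparisons was rerun under the alternatives named above, with the plain analysis of variance and the fit to compared groups run within each sex only, and no passing difference of a named gene changed sign. The count of 5 genes passing between the sexes held under each scaling, filter and variance setting and with each array left out (5 to 5), and 0 passed in each within-sex KO comparison under every alternative. The sex difference within each genotype was an alternative chosen after seeing the data. In WT mice 1 of the 8 genes passed and 1632 probe sets did. In KO mice 1862 probe sets did, against 4036 in the average over genotypes. Both came from the fit to all 23 arrays and compared only the arrays of 1 genotype. Of the listed genes named above, Porcn, Fzd1, Thbd, Cdh5, Colec11 and others did not pass between the sexes in WT arrays alone. Ahsg, Sox9 and others did not pass in KO arrays alone. The plain analysis of variance called 7 probe sets in females and 3 in males, against 21 and 12 with limma; the cause was not tested. Leaving out each array gave 16 to 29 probe sets in females (29 without female WT replicate 5), 9 to 21 in males (21 without male WT replicate 6), 23 to 39 in the average, 4 to 5 for the KO effect in females minus that in males, and 3491 to 4092 between the sexes. Genes of the 8 that passed were then 0 to 0 in each sex and for the difference, and 0 to 1 in the average. Pairs passing ran from 0 to 2, against 11 with group means left in. Under equal array medians 55% of the passing probe sets in the female KO comparison were higher in KO, against 42.9%. Same-numbered arrays shared little deviation (22 pairs, r from -0.14 to 0.21, 2 over 0.1, 3 best with their own number). The main fit used no pairing, and this check cannot exclude one. With the number as a replicate block, 18 probe sets passed in females, 13 in males, 27 in the average, 4 for the difference and 3815 between the sexes, and 5 of the 8 genes between the sexes. How far signal over background limits Tbx3 was not tested.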
